A study of Mus musculus with 6 samples.

Results

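Ephrins are cell surface proteins that bind Eph receptor tyrosine kinases on neighbouring cells. Ephrin-A proteins are held in the membrane by a lipid anchor, and ephrin-B proteins span it and carry a cytoplasmic tail, so that contact can signal into the receptor cell (forward) and into the ligand cell (reverse). In the developing forebrain and hippocampus this system is known for guiding axons, setting tissue boundaries and acting on neural progenitors. All 8 mouse ephrin genes, 5 of class A (Efna1 to Efna5) and 3 of class B (Efnb1 to Efnb3), were selected by symbol from a table of 35274 genes, and each matched 1 row. Their values were transcripts per 1000000 (TPM), a length-corrected level, so levels of different genes can be set side by side.

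RNA sequencing had been done on tissue labelled dentate neuroepithelium, the embryonic source of the dentate gyrus, from mice labelled embryonic day 14. There were 3 genotypes with 2 libraries each: wild type, heterozygous for a floxed allele of the transcription factor gene Sox11 (SOX11f/+, labelled haplodeficient) and homozygous for it (SOX11f/f, labelled homodeficient). No Cre driver, strain or litter is named in the sources used here. Whether libraries of a genotype came from different embryos is not stated either, so each p reflects only the variation among these libraries, part of which may be technical. Where a pair of values is given for a genotype, replicate 1 stands before replicate 2.

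Sox11 followed the labels in every library, with 192 and 130 TPM in the wild type pair, 56.1 and 50.1 in the heterozygous pair and 5.23 and 5.06 in the homozygous pair. All 12 markers listed for dentate progenitors and young granule neurons were above 0 in each library, and their summed level was 1362 to 2120 TPM. Libraries also held RNA of other cells. The 8 markers of mature excitatory neurons summed to 851 to 1917 TPM, those of endothelium to 122 to 267 TPM and those of oligodendrocytes to 49.5 to 183 TPM. All of these sums overlapped between genotypes. Markers of microglia summed to 168 to 197 TPM in wild type and to 269 to 409 TPM in the 4 floxed libraries, those of astrocytes to 997 to 1042 and 1202 to 1575 TPM, and those of oligodendrocyte precursors to 452 to 580 and 631 to 752 TPM. All 8 markers of each of these lists were above 0 in every library. Mature neurons, astrocytes and oligodendrocytes go beyond a neuroepithelium, so progenitor markers above 0 do not settle the labelled tissue or age. Markers of motile cilia (6 of 8 above 0 in every library) summed to 11.1 to 11.8 TPM in wild type and to 138 to 405 TPM in the floxed libraries. The 8 choroid plexus markers, 7 of them above 0 in every library, summed to 4.73 to 6.17 TPM in wild type and to at least 12.2 TPM in the floxed libraries, and reached 11579 TPM in heterozygous replicate 1 and 6632 TPM in homozygous replicate 1. Summed markers of microglia, astrocytes, oligodendrocyte precursors, motile cilia and choroid plexus were thus higher in every floxed library than in wild type. The sum for dentate progenitors and young granule neurons was lower. Single markers did not all follow these sums. In the latter list Emx2, Lhx2, Lef1, Neurod1, Prox1 and Dcx were lower in every floxed library. Pax6, Sox2, Hes5, Nes, Vim and Eomes overlapped with wild type. So did Aif1 of microglia, Aqp4, Aldh1l1, Slc1a2 and S100b of astrocytes, and Cspg5 and Gpr17 of oligodendrocyte precursors. Choroid plexus markers Clic6, Kcnj13 and Slc4a5 were lower in heterozygous replicate 2 than in wild type replicate 1. Aqp1 was at 0.75 TPM in both heterozygous replicate 2 and wild type replicate 2. The part of these cells in the ephrin values was not tested. In bulk tissue, fewer cells of a type and less RNA per cell cannot be told apart.

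Efnb3 was the most abundant ephrin in all 6 libraries and Efna5 the least. Efnb3, a ligand known for keeping corticospinal axons from crossing the midline, averaged 121 TPM. This placed it above 91.0% of the 14518 genes averaging 1 TPM or more. Next came Efna3 at a mean of 50.4 TPM, Efnb2 at 22.6, Efna2 at 21.7, Efnb1 at 14.9, Efna4 at 10.6, Efna1 at 9.78 and Efna5 at 2.37. Efnb3 lay above Efna3 in 6 of 6 libraries, by 2.24 to 2.84 times, and Efna3 lay above Efnb2 in 6 of 6, by 1.60 to 3.46 times. Efnb2 and Efna2 did not differ beyond their spread: Efnb2 was the higher in 3 of 6 libraries. Efna4 and Efna1 did not either, with Efna4 higher in 4 of 6. Efna2 exceeded Efnb1, and Efnb1 exceeded Efna4, in 6 of 6 libraries, but in both pairs the ranges over libraries overlapped. Efna1 was 2.17 to 6.56 times as high as Efna5 within the same library. All 8 genes passed the filter of a 1 TPM average, and the lowest value of any of them was 2 TPM.

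**Figure D1:**
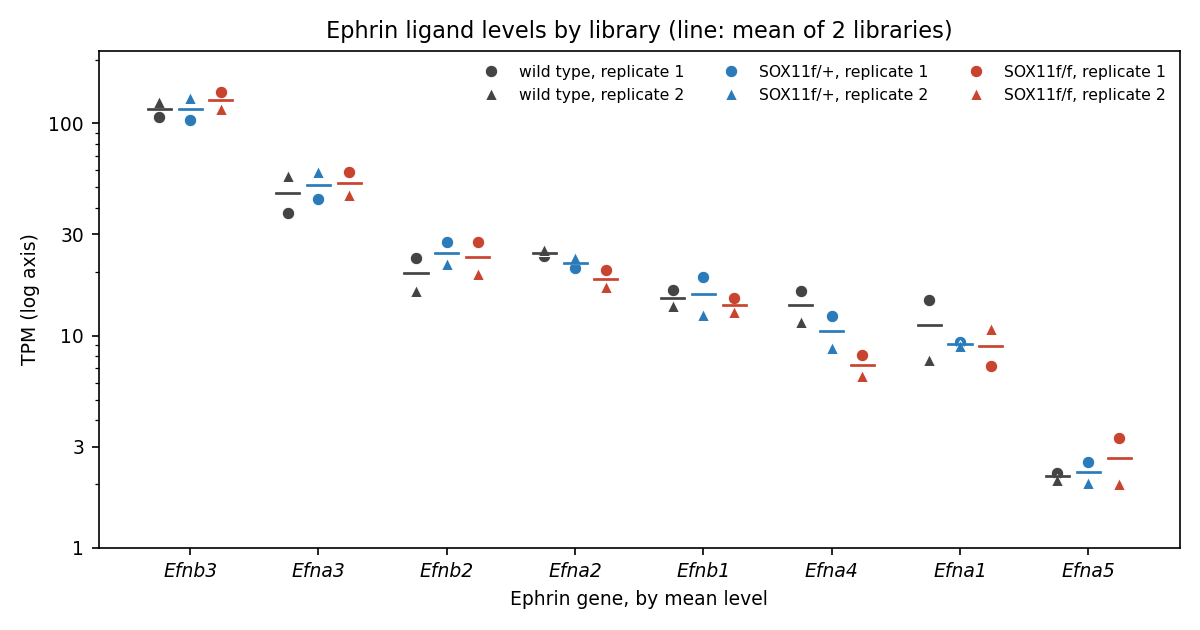
TPM of the 8 ephrin genes on a log axis, ordered by mean level, with 1 symbol per library, colours for genotypes and a short line for the mean of 2 libraries. Efnb3 stood between 104 and 141 TPM in every library, and in Efna4 both homozygous symbols lay below all others.

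The summed ligand level did not differ between genotypes beyond the spread of libraries. Summed over the 8 genes, ephrins reached 251 ± 12.5 TPM in the wild type pair, 253 ± 20.0 in the heterozygous pair and 257 ± 35.6 in the homozygous pair (SD, n = 2 each). Efnb3 and Efna3 together made up 60.1% to 71.2% of that sum. Class A summed to 99.0 ± 5.77, 95.4 ± 8.73 and 90.1 ± 11.5 TPM and class B to 152 ± 6.77, 158 ± 11.3 and 167 ± 24.1 TPM in the same order. These means differed by less than the SD of the homozygous libraries for the ephrin sum, the class A sum and the class B sum. The homozygous SD was the widest in each. Wild type and homozygous means of class A and of class B differed by more than the SD of the other genotypes. Libraries of all genotypes overlapped in each sum.

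Differences of single genes were tested with limma on log2(TPM + 1), a scale that understates changes of low genes, with Benjamini-Hochberg adjustment over all 14518 genes. At an adjusted p of 0.05, 0 of 8 ephrins passed in heterozygous against wild type, where 0.0344% of all genes did. Likewise 0 of 8 passed in homozygous against wild type (0.0413% of all genes) and 0 of 8 in homozygous against heterozygous tissue (0.0138%). At an unadjusted p of 0.05, limma gave 0, 2 and 0 ephrins in these comparisons, beside 14.1%, 18.1% and 2.05% of all genes. Both of those ephrins, Efna4 and Efna2, are of class A and were lower in homozygous tissue. The median log2 difference of the 8 genes was 0.02 in heterozygous and 0.02 in homozygous tissue against wild type, beside -0.06 and -0.04 over all genes. Between homozygous and heterozygous tissue it was -0.06, beside 0.01.

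Efna4 had the largest difference among the ephrins in each comparison. It encodes a lipid-anchored class A ligand linked to the growth of skull sutures. Efna4 (ENSMUSG00000028040) was at 16.2 and 11.7 TPM in the wild type pair, 12.4 and 8.72 in the heterozygous pair and 8.11 and 6.46 in the homozygous pair. Both homozygous libraries lay below every other one, while heterozygous and wild type libraries overlapped. The homozygous difference from wild type was -0.84 on the log2 scale (SE 0.24, limma adjusted p = 0.165), with a 95% interval of -1.41 to -0.26 that is not corrected for the number of genes. For heterozygous tissue it was -0.37 (SE 0.24, limma adjusted p = 0.512), and that between both floxed genotypes was -0.47 (SE 0.24, limma adjusted p = 0.9999). Summed markers of dentate progenitors and young granule neurons were at 2120 and 1562 TPM in the wild type pair. They were at 1527 and 1368 TPM in the heterozygous pair and 1394 and 1362 in the homozygous pair. They were highest in wild type replicate 1, as Efna4 was, and their part in the Efna4 values was not tested.

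Efna2 was ordered by genotype in all 6 libraries. Ephrin-A2 is known for topographic maps in the visual system and for restraining neural progenitors. Efna2 (ENSMUSG00000003070, chromosome 10 from 80179482 to 80190010, plus strand) was at 23.8 and 25.3 TPM in the wild type pair, 20.8 and 23.1 in the heterozygous pair and 20.3 and 16.9 in the homozygous pair. Every heterozygous value was below every wild type value, and every homozygous value was below every heterozygous one. The differences from wild type were -0.16 (SE 0.14, limma adjusted p = 0.624) in heterozygous and -0.39 (SE 0.14, limma adjusted p = 0.229) in homozygous tissue, so the order did not pass a test over all genes. Against heterozygous tissue the homozygous difference was -0.23 (SE 0.14, limma adjusted p = 0.9999). Libraries without overlap were common: genes lower in this way made up 28.9% of all genes in heterozygous against wild type, 30.7% in homozygous against wild type and 13.7% in homozygous against heterozygous tissue. Among the 8 ephrins there were 1 (Efna2), 2 (Efna2 and Efna4) and 2 (Efna2 and Efna4) such genes, and 0 ephrins were higher without overlap in any comparison, beside 17.1%, 23.6% and 15.3% of all genes.

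**Figure D2:**
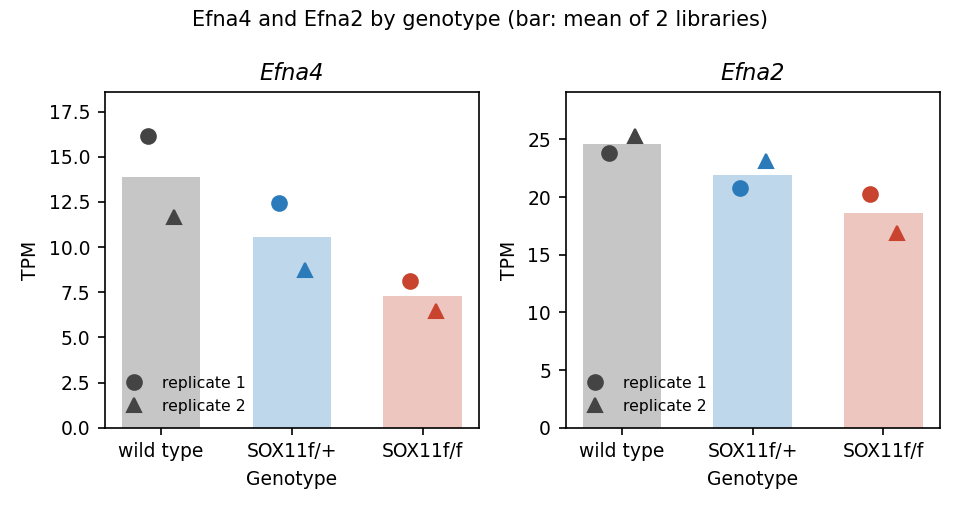
TPM of Efna4 and Efna2 by genotype, with bars for the mean of 2 libraries and 1 symbol per library. Efna4 ranged from 16.2 TPM in wild type replicate 1 to 6.46 TPM in homozygous replicate 2, and Efna2 from 25.3 to 16.9 TPM.

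Efna4 shares its locus with other class A ligands. On GRCm38, Efna1 (89271733 to 89281142), Efna3 (89313899 to 89322965) and Efna4 (89333390 to 89338028) lie on the minus strand of chromosome 3 within 66.3 kb, and no other gene of the table lies between their outer ends. The outer neighbours are Slc50a1, a sugar transporter gene, and Adam15, a membrane protease gene. The ratio of the homozygous to the wild type mean was 0.524 for Efna4, 1.12 for Efna3, 0.797 for Efna1, 1.12 for Slc50a1 and 1.20 for Adam15, so that Efna4 had the lowest ratio at the locus. An antisense transcript shares 168 exon bases with Efna4 and another shares 344 with Efna3. Neither has a row in the table and no strand handling is stated, so reads from these stretches cannot be assigned to a strand.

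The 250 bases before the start sites of these genes are shown because Efna4 and Efna3 are neighbours with different values in homozygous tissue, and Efna2 is the other ephrin with the lowest values there. Sequences are from RefSeq on GRCm38.p6, written 5′ to 3′ on the gene's strand. Capitals mark a match to AACAAAG or AACAATG, short sequences of the kind bound by Sox proteins that share their opening letters, searched on both strands.
Efna4, chr3:89338029-89338278, minus strand: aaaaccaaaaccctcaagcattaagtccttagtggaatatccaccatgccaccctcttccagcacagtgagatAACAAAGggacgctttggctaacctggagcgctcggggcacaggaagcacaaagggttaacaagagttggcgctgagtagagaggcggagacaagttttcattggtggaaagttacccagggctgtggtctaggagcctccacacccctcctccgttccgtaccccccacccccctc
Efna3, outer start, chr3:89322940-89323189, minus strand: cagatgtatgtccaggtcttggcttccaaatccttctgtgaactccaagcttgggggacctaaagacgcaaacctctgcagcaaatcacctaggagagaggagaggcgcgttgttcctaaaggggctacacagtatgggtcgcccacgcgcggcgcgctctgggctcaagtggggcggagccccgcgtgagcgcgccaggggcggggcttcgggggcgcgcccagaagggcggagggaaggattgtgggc
Efna2, chr10:80179232-80179481, plus strand: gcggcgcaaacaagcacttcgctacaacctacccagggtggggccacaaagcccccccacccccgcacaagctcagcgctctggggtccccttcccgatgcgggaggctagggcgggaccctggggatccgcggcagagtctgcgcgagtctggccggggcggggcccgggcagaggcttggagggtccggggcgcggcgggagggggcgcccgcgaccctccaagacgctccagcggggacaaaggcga
Windows of 300 bases, which add 50 bases after the start, were found for 7 of the 8 ephrin genes, with 9 start sites in all. A match was present in 1 of these 9 windows, that of Efna4, where AACAAAG begins 177 bases before the start site. Of all 32851 windows in the RefSeq table, 5.85% hold AACAAAG, 3.78% hold AACAATG and 9.36% hold either, so 1 of 9 is close to that share. The windows of Efna3 and Efna2 hold no match, which says only that these letters are not in them.

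The libraries of the remaining class A ligands overlapped in all 3 comparisons. Efna1, a ligand known from blood vessels and inflammation, was at 14.8 and 7.71 TPM in the wild type pair, 9.36 and 8.94 in the heterozygous pair and 7.17 and 10.7 in the homozygous pair. The 2 wild type libraries held both the highest and the second lowest value. Endothelial markers summed to 236 and 160 TPM in the wild type pair, 179 and 192 in the heterozygous pair and 122 and 267 in the homozygous pair, and mural and meningeal markers to 295 and 169, 193 and 232, and 132 and 404 TPM. Efna1 and both marker sums were above their other values in wild type replicate 1 and homozygous replicate 2 and lowest in homozygous replicate 1. Not every single marker followed, as Kdr, Pdgfrb, Cspg4, Dcn and Lum were lowest in wild type replicate 2. Pdgfrb and Cspg4 were also lower in wild type replicate 1 than in both heterozygous libraries. The part of endothelial, mural and meningeal cells in the Efna1 values was not tested. The Efna1 differences from wild type were -0.21 (SE 0.31, limma adjusted p = 0.776) in heterozygous and -0.26 (SE 0.31, limma adjusted p = 0.671) in homozygous tissue.

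Efna3, a ligand known from astrocytes that contact dendritic spines in the hippocampus, was at 37.9 and 56.3 TPM in the wild type pair, 44.1 and 58.7 in the heterozygous pair and 59.3 and 45.9 in the homozygous pair. The differences from wild type were 0.14 (SE 0.23, limma adjusted p = 0.804) and 0.17 (SE 0.23, limma adjusted p = 0.705). Efna5, known for the mapping of thalamic and retinal axons, was low in each library, with 2.25 and 2.09 TPM in the wild type pair, 2.54 and 2.01 in the heterozygous pair and 3.3 and 2 in the homozygous pair. Its gene on chromosome 17 (62604184 to 62881317, minus strand) is the longest of the family at 277 kb. The Efna5 differences from wild type were 0.04 (SE 0.27, limma adjusted p = 0.955) and 0.18 (SE 0.27, limma adjusted p = 0.735).

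Class B ligands showed no ordering by genotype. Efnb3, on chromosome 11 (69554092 to 69560205, minus strand, 5 exons), was at 108 and 127 TPM in the wild type pair, 104 and 132 in the heterozygous pair and 141 and 117 in the homozygous pair. Against wild type it differed in heterozygous tissue by -0.00038 on the log2 scale (SE 0.16, limma adjusted p = 0.999) and in homozygous tissue by 0.14 (SE 0.16, limma adjusted p = 0.645). On the scale of TPM + 1 the 95% interval of the homozygous to wild type ratio ran from 0.851 to 1.43. On the log2 scale this interval was the narrowest after that of Efna2, and the widest was that of Efna1, whose ratio ran from 0.499 to 1.40.

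Efnb2, the ligand that marks arterial endothelium and is also made by neural cells, lies on chromosome 8 (8617434 to 8661242, minus strand). It was at 23.2 and 16.3 TPM in the wild type pair, 27.5 and 21.6 in the heterozygous pair and 27.6 and 19.5 in the homozygous pair, so that libraries of each genotype overlapped with those of the others. Its differences from wild type were 0.31 (SE 0.24, limma adjusted p = 0.563) and 0.24 (SE 0.24, limma adjusted p = 0.600). Efnb1, the X-linked ligand known for sorting cells into patches and for maintaining cortical progenitors, lies on chromosome X (99136130 to 99148991, plus strand). It was at 16.5 and 13.7 TPM in the wild type pair, 18.8 and 12.6 in the heterozygous pair and 15.1 and 12.9 in the homozygous pair, again with overlap throughout. Its differences from wild type were 0.03 (SE 0.22, limma adjusted p = 0.959) and -0.10 (SE 0.22, limma adjusted p = 0.820). Between both floxed genotypes the differences of the 6 ephrins other than Efna4 and Efna2 lay between -0.14 (Efnb1) and 0.14 (Efnb3), each with a limma adjusted p of 0.9999.

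Efnb2 and Efna5 had their 2 highest values in homozygous replicate 1 and heterozygous replicate 1, and Efnb1 had its highest in heterozygous replicate 1. These are the libraries in which choroid plexus markers summed to 6632 and 11579 TPM, beside 209 TPM or less in the others. Both are also replicate 1, and Efnb2, Efna5 and Efnb1, like Efna4, were higher in replicate 1 than in replicate 2 in all 3 genotypes. That includes wild type, where choroid plexus markers summed to 6.17 and 4.73 TPM. Replicate number and choroid plexus content thus cannot be told apart by leaving out both libraries. Without both libraries, Efnb2 differed from wild type by 0.15 in heterozygous and by -0.00056 in homozygous tissue on the log2 scale, Efna5 by -0.07 and -0.08, and Efnb1 by -0.24 and -0.21. Each floxed genotype then has 1 library, assumed to vary like the wild type pair, and this fit called 1.05% and 3.38% of all genes. None of these 3 genes passed with or without both libraries, and the part of choroid plexus in their levels was not tested.

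**Figure D3:**
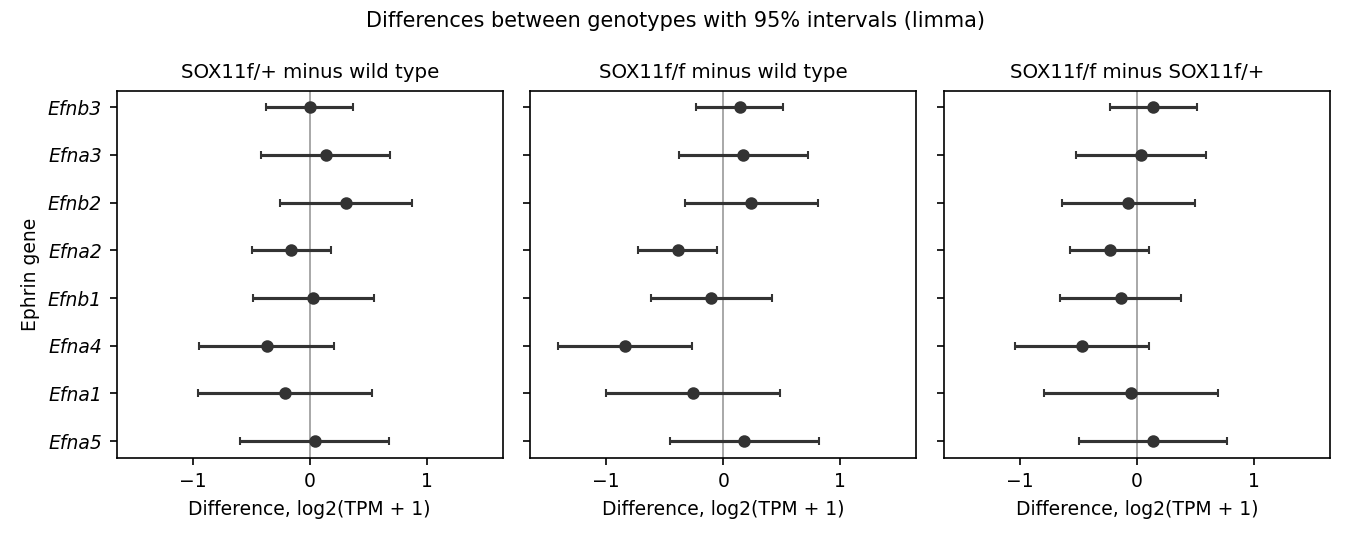
Differences in log2(TPM + 1) between genotypes for the 8 ephrin genes, with points for limma's estimate and bars for its 95% interval, unadjusted for the number of genes. Only the intervals of Efna4 (-1.41 to -0.26) and Efna2 (-0.73 to -0.05) in homozygous against wild type tissue lie wholly on one side of 0.

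Efna3 and Efnb3 shared an order of libraries that cut across genotypes. Both were highest in homozygous replicate 1, then in heterozygous replicate 2, wild type replicate 2 and homozygous replicate 2, and both had their 2 lowest values in wild type replicate 1 and heterozygous replicate 1. Pearson's r between them on log2(TPM + 1) was 0.908 over the 6 libraries, the highest of the 28 ephrin pairs and given as a description. Mature excitatory neuron markers summed to 851 and 1405 TPM in the wild type pair, 881 and 1530 in the heterozygous pair and 1374 and 1917 in the homozygous pair. Their 2 lowest sums were in wild type replicate 1 and heterozygous replicate 1, as for both ephrins, but their highest was in homozygous replicate 2. The part of mature neurons in these values was not tested.

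**Figure D4:**
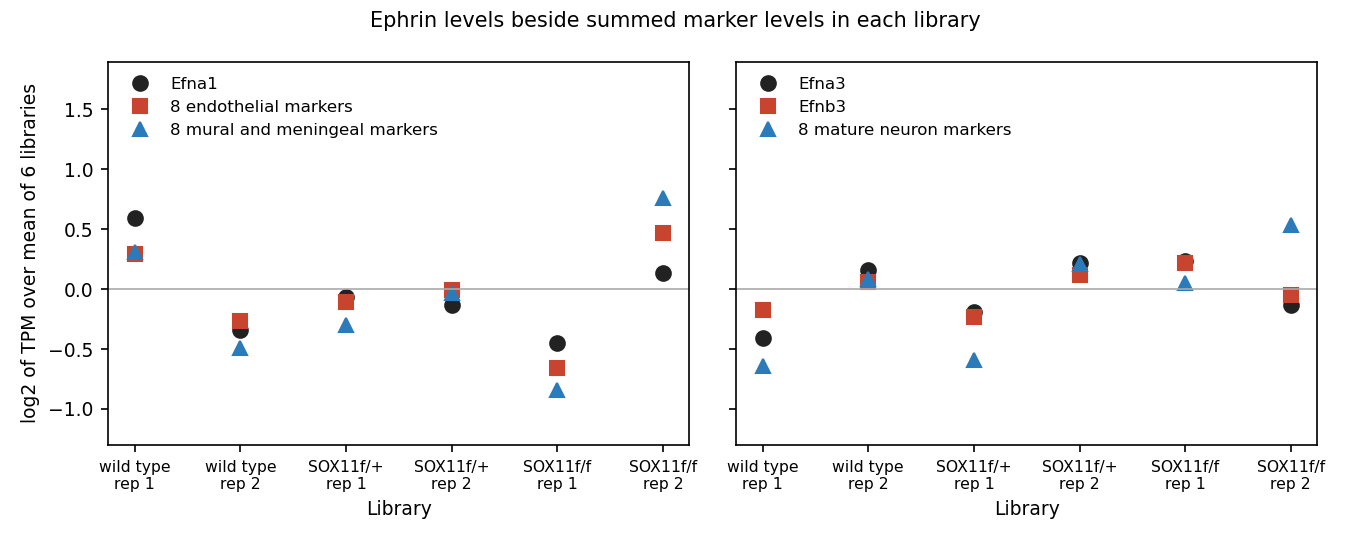
Left, Efna1 with the summed levels of 8 endothelial and 8 mural and meningeal markers; right, Efna3 and Efnb3 with the sum of 8 mature excitatory neuron markers, each as log2 of TPM over its mean in the 6 libraries. Efna1 and the vascular sums are lowest in homozygous replicate 1, and Efna3, Efnb3 and the neuron markers have their 2 lowest values in wild type replicate 1 and heterozygous replicate 1.

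Genes most like each ephrin were sought by Pearson's r of log2(TPM + 1) over the 6 libraries among 11454 named genes averaging 5 TPM or more. With so few libraries many genes reach a high r, and 37 (Efna5) to 843 (Efna4) genes exceeded 0.9. For Efna4 the closest included Traf4 (r = 0.997) and Cish (0.995). The closest to Efna2 were Stmn4, a neuronal stathmin (0.997), Tmem35a (0.989) and Cmpk1 (0.986). Efna1 was nearest to Plxnd1, a semaphorin receptor of vessels (0.996), Slc25a29 (0.993) and Bmpr1a, a BMP receptor (0.991). Efna3 was nearest to Ptges2 (0.983), Grm5, a glutamate receptor (0.979) and Stambpl1 (0.979). For Efnb3 they included Col25a1 (0.973) and Rftn1 (0.968). For Efnb2 they were Pcmtd2 (0.989), Gpn3 (0.988) and Ergic3 (0.988), and for Efnb1 Ezh1, a Polycomb methyltransferase (0.992), Ift46, a ciliary transport gene (0.992) and Taf1a (0.992). For Efna5 they were Per2, a clock gene (0.980), Sult2b1 (0.977) and Vps11 (0.970).

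Receptors for these ligands were counted beside them, with no test between both lists. Of 14 Eph receptor genes, 12 passed the filter. In heterozygous against wild type 12 of 12 had a log2 difference below 0, beside 4 of 8 ephrins and 59.8% of all genes, and in homozygous against wild type 9 of 12 did, beside 4 of 8 ephrins and 55.2%. With limma 0 of 12 receptors passed over all genes in either comparison, or between both floxed genotypes, while 6, 5 and 0 had an unadjusted p under 0.05, beside 14.1%, 18.1% and 2.05% of all genes. The median log2 difference of the receptors was -0.27 in both comparisons with wild type. The smallest p-values belonged to Epha4, a receptor for ligands of both classes (-0.70, SE 0.11, limma adjusted p = 0.132 in heterozygous and -0.65, SE 0.11, limma adjusted p = 0.071 in homozygous tissue), and to Ephb2 (-0.67, SE 0.13, limma adjusted p = 0.180 and -0.72, SE 0.13, limma adjusted p = 0.079). Ephb1 and Ephb3 followed in heterozygous tissue (-0.65 and -0.52), and Ephb1 and Epha7 in homozygous tissue (-0.63 and -0.29). The calls depended on single libraries and on the fit, as did the calls over all genes. Without heterozygous replicate 2 the limma adjusted p of Epha4 was 0.0326 in heterozygous against wild type. That fit has 1 heterozygous library, assumed to vary like the other groups, and called 397 genes (2.73%), beside 5 with all libraries. In homozygous against wild type it was 0.0345 and 0.0337 without heterozygous replicate 1 and 2 and 0.0435 with the replicate number as a block, and that of Ephb2 was 0.0482 and 0.0483 without the same libraries. With only both of these genotypes in the fit the limma adjusted p was 0.0343 for Epha4 and 0.0477 for Ephb2. These fits called 391 genes (2.69%) without heterozygous replicate 1, 397 (2.73%) without replicate 2, 283 (1.95%) with the block and 393 (2.71%) with only both genotypes, beside 6 with all libraries and no block.

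The ratio of summed ligand to summed receptor levels was higher in all 4 floxed libraries than in wild type in class B. Ephrin-B to EphB was 0.705 and 0.944 in the wild type pair, 1.18 and 1.31 in the heterozygous pair and 1.54 and 1.11 in the homozygous pair, and every floxed library lay above both wild type ones. The EphB sum was 209 and 166 TPM in wild type and 119 to 135 TPM in the floxed libraries, whereas the ephrin-B sum overlapped between genotypes. Ephrin-A to EphA was 0.211 and 0.219 in the wild type pair, 0.270 and 0.282 in the heterozygous pair and 0.303 and 0.210 in the homozygous pair, where homozygous replicate 2 lay below wild type. Markers of dentate progenitors and young granule neurons summed to 2120 and 1562 TPM in wild type and 1362 to 1527 TPM in the floxed libraries. Their sum, though not each marker, was lower where the EphB sum was, and their part in the EphB sum was not tested. These ratios are descriptions with no test.

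**Figure D5:**
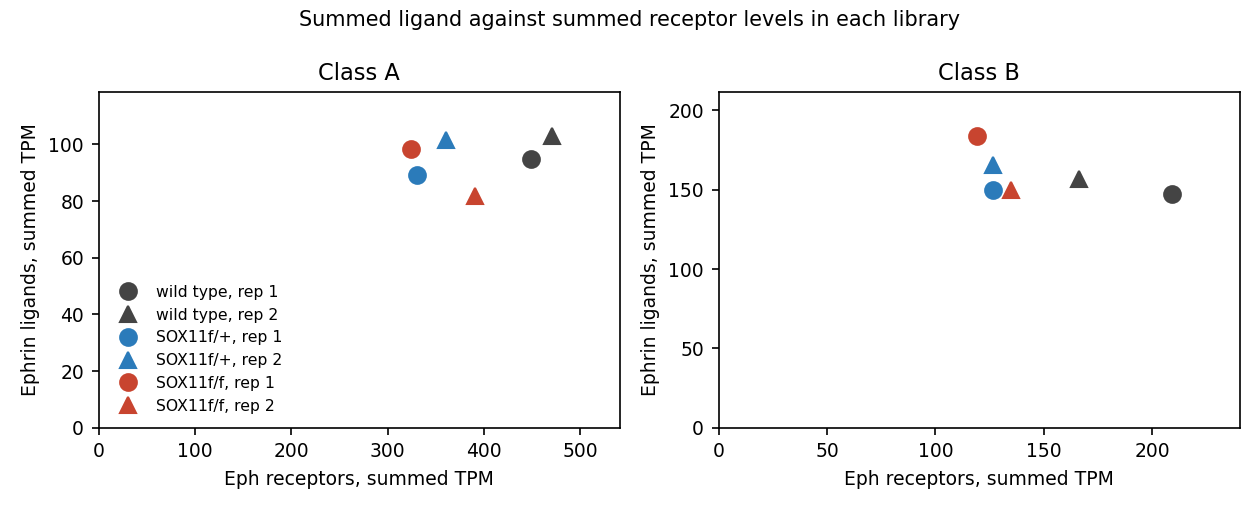
Summed TPM of ephrin ligands (vertical axis) against summed TPM of Eph receptors (horizontal axis) of class A, left, and class B, right, with 1 symbol per library. Wild type libraries lie furthest right in both classes, at EphA sums of 449 and 471 and EphB sums of 209 and 166 TPM, while ligand sums overlap between genotypes.

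Of 25 genes that carry or process ephrin and Eph signals, all 25 were tested and 0 passed with limma in any of the 3 comparisons, while 5 (1 higher, 4 lower), 7 (2 higher, 5 lower) and 0 had an unadjusted p under 0.05. These are counts in a table in which 14.1%, 18.1% and 2.05% of all genes had one. Vav2, a guanine nucleotide exchange factor downstream of Eph receptors, was at 47.0 and 41.2 TPM in the wild type pair, 29.1 and 30.9 in the heterozygous pair and 33.2 and 27.2 in the homozygous pair (limma adjusted p = 0.255 and 0.140 against wild type). Itsn1, an endocytic scaffold that works with EphB2, stood at 88.7 and 87.6, 69.5 and 71.8, and 60.3 and 66.3 TPM (limma adjusted p = 0.289 and 0.0984). Both had floxed libraries below both wild type ones. In the other direction, Ptpn13, a phosphatase that acts on ephrin-B tails, stood at 6.02 and 5.58, 12.6 and 7.86, and 9.58 and 11.6 TPM (limma adjusted p = 0.317 and 0.181). Ngef, the EphA-coupled exchange factor ephexin, stood at 11.6 and 13.3, 15.2 and 17.2, and 17.2 and 23.7 TPM (limma adjusted p = 0.433 and 0.160). Rasa1, a Ras inhibitor recruited by Eph receptors, was also lower in every floxed library, with 70.1 and 67.8 TPM in the wild type pair, 59.8 and 53.5 in the heterozygous pair and 56.05 and 54.3 in the homozygous pair (limma adjusted p = 0.322 and 0.186).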

How the data were processed

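The authors deposited 1 table of TPM values per gene and library, with versioned Ensembl identifiers and symbols. Per the labels' design text, TopHat 2.0.11 aligned the 150-base reads to mm10 and Cufflinks 2.2.1 was used with RefSeq transcripts, whereas the submitters' processing notes name FastQC and RSEM with mm10 and GRCm38. Which of these made the TPM values, and how reads matching several genes were handled, is not given in the sources used here. TPM keeps no read depth, so no counting error was computed, and because each library sums to 1000000 a very abundant transcript lowers all others there.

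Genes averaging 1 TPM or more (14518) were tested on log2(TPM + 1) with limma 3.58.1 in R 4.3.3: 1 term per genotype, all 6 libraries, 3 residual degrees of freedom, eBayes with an intensity trend, Benjamini-Hochberg adjustment at 0.05 and two-sided p. Means are given with the SD of 2 libraries, log2 differences with limma's SE. The fit was also run on simulated data with independent noise per gene. Such data lack shifts of whole libraries, and no result given here rests on them. Gene positions are from GENCODE vM21 on GRCm38. BLAST 2.17.0 found no transcript of another gene at 90% identity or more to an ephrin transcript, other than the antisense overlaps named above.

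The members, the lists of receptors, signalling partners and markers, and the tests were chosen with earlier results of these data known. Named were all ephrins, up to 4 receptors and signalling partners with the smallest p per comparison, the 3 genes most like each ephrin (symbols of unnamed genes skipped, and some genes not reported here), and the neighbours on chromosome 3. Alternatives were another pseudocount, other filters, TMM rescaling, eBayes without a trend, a replicate block, only the genotypes compared, and leaving out libraries. The fit that leaves out both libraries richest in Ttr, a choroid plexus gene, was chosen after the data had been seen.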

Additional observations from a re-analysis of the deposited data

How the results depend on the processing

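In all 3 comparisons 0 of 8 ephrins passed under each of the 14 alternative settings, and the lowest limma adjusted p reached by any of them was 0.0572, for Efna4 in homozygous against wild type tissue with the replicate block. Over the alternatives this difference ran from -1.06 to -0.62 (limma adjusted p from 0.0572 to 0.56), and that of Efna2 from -0.52 to -0.26 (limma adjusted p from 0.178 to 0.653). Efna4 and Efna2 were lower under every alternative in all 3 comparisons. Of 333 alternative values of ephrin differences, 38 had the opposite sign. When genes had to average 5 TPM, Efna5 was not tested. The sources do not say what a replicate number stands for, so the numbers were not taken to pair libraries. Libraries of the same replicate number deviated from their genotype's mean with correlations of 0.21, -0.09 and 0.35 between genotypes. These correlations do not settle whether the libraries are paired. With the replicate block, 1 Eph receptor was called in homozygous against wild type tissue among 283 genes (1.95%), and with only these genotypes 2 were among 393 (2.71%), beside 6 genes in all with neither.

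Leaving out 1 library at a time, the log2 difference changed sign for some ephrins. The ranges were -0.64 to 0.22 for Efna1, -0.14 to 0.42 for Efna3, -0.074 to 0.16 for Efna5, -0.24 to 0.31 for Efnb1 and -0.17 to 0.17 for Efnb3 in heterozygous against wild type tissue. They were -0.69 to 0.17 for Efna1, -0.11 to 0.45 for Efna3, -0.079 to 0.44 for Efna5, -0.23 to 0.020 for Efnb1 and -0.0024 to 0.48 for Efnb2 in homozygous against wild type, and -0.31 to 0.21 for Efna1, -0.17 to 0.24 for Efna3, -0.12 to 0.40 for Efna5, -0.41 to 0.14 for Efnb1, -0.31 to 0.17 for Efnb2 and -0.030 to 0.31 for Efnb3 in homozygous against heterozygous tissue. The number of Eph receptors called ranged from 0 to 1 in heterozygous and from 0 to 2 in homozygous against wild type. The fits with such calls called 391 to 397 of all genes. A genotype left with 1 library is assumed to vary like the others. Without the 2 libraries with the most Ttr, values with the opposite sign were -0.07 for Efna5, -0.24 for Efnb1 and 0.17 for Efnb3 in heterozygous against wild type. In homozygous against wild type they were 0.0017 for Efna1, -0.0080 for Efna3, -0.079 for Efna5 and -0.00056 for Efnb2, and against heterozygous tissue 0.24 for Efna1, -0.35 for Efna3, -0.0048 for Efna5, 0.034 for Efnb1 and -0.16 for Efnb3. With TMM rescaling Efnb3 stood at 0.067 in heterozygous against wild type. The cause of these changes of sign was not tested.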
